A study of Homo sapiens with 6 samples.

Results

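The 81 histone genes of the deposited RNA sequencing table were examined, out of 27381 genes in all. They were taken by symbol. Of them, 72 have a symbol that begins with HIST1, HIST2, HIST3 or HIST4 and are called replication-dependent here, and 9 are genes of histone variants (H1F0, H1FX, H2AFJ, H2AFV, H2AFX, H2AFY, H2AFZ, H3F3A and H3F3B). GENCODE 29 lists 3 of the 72, HIST1H2APS1, HIST2H2BA and HIST2H2BC, as pseudogenes. By class, the 72 genes comprise 6 of H1, 18 of H2A, 20 of H2B, 13 of H3 and 15 of H4.

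The RNA came from DU145, a human prostate carcinoma cell line of metastatic, castration-resistant origin, in 6 libraries. The labels give 2 libraries to scramble control cells (Scr), 2 to cells with a knockout of CD24 (CD24 KO) and 2 to cells with a knockout of RCC2 (RCC2 KO). According to the methods, all 3 had received Cas9, with a scrambled sgRNA in Scr and paired sgRNAs against the target gene in the knockouts, from a plasmid that also encodes GFP, and were sorted for GFP and grown as clones. The clone behind each library is not given in the sources used here, so the knockout and the clone cannot be told apart. The libraries of a condition had already been merged into a single FPKM column (sequenced fragments scaled to transcript length and library size), and the RCC2 KO column bears a name that is also the full label of the first RCC2 KO library. With 1 value per gene and condition there is no SD, no test and no replicate check, and with no counts the depth behind a value is unknown.

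The RNAs of the targeted genes were read as well. CD24 was at 93.2 FPKM in Scr but at 309 in the libraries labelled CD24 KO, and at 214 where RCC2 KO was the label. RCC2 was at 37.8, 14.2 and 41.8 FPKM in the same order. Neither RNA was therefore below Scr under the label of its own knockout, and every direction given below is that of the label. The epithelial markers KRT8, KRT18, EPCAM and CDH1 were above 20 FPKM in every column, with KRT8 and KRT18 at least 2-fold lower in CD24 KO than in Scr, while the prostate secretory gene KLK3 and the leukocyte marker PTPRC were listed at 0, and PECAM1 and COL1A1 were below 1 FPKM. Across the table, 12822 genes had at least 1 FPKM in at least 1 column and were compared as log2(FPKM + 1), a scale that understates the change of low genes. A gene called at least 2-fold lower or higher differs by at least 1 on this scale.

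Histones package DNA. H2A, H2B, H3 and H4 form the core of the nucleosome, and H1 binds the linker DNA between nucleosomes. Replication-dependent genes lie in clusters, have no introns and are transcribed mainly in S phase. Their mRNAs usually end not in a poly(A) tail but in a stem-loop that is bound by the stem-loop binding protein SLBP, and cleavage just after it forms the mature end. Some of these genes also use a poly(A) site further downstream. Variant genes such as H2AFZ and H3F3B are expressed outside S phase as well and give mRNAs with a poly(A) tail. The library kit named in the study's methods selects mRNA, whereas the labels name a kit used on total RNA without stating a selection step. How much RNA without a tail entered each library was not tested.

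The stem-loop was read from the GENCODE 29 transcripts of the members, since it is the sequence that sets most of these mRNAs apart. A stem-loop of 16 bases was found after the stop codon in 31 of the 72 replication-dependent genes and in 1 variant, H2AFX. The other replication-dependent genes include 34 that are annotated to the stop codon and no further, where no stem-loop could be seen. In the following sites the capitals mark the stem-loop, 5′ to 3′ on the sense strand.
HIST1H2AE: accaaaGGCTCTTTTCAGAGCCacccacct
HIST2H2BE: tccaaaGGCTCTTTTCAGAGCCacccacct
HIST1H2BD: cccaaaGGCTCTTTTAAGAGCCacgcatgt
HIST1H3H: cccaaaGGCTCTTTTCAGAGCCacccacat
HIST1H4H: accaaaGGCCCTTTTCAGGGCCgcccactt
HIST1H4B: tccaatGGCCCTTTTCAGGGCCgcccactc
H2AFX: cacaaaGGCCCTTTTAAGGGCCaccaccgc

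The stem differed by class. All 8 H4 genes with a stem-loop had a stem that begins GGCCC, in 5 genes as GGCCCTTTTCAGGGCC and in 3 genes as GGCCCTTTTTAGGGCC. In the H2A, H2B and H3 genes the stem began GGCTC. The form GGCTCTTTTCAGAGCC was shared by 6 H2A, 8 H2B and 2 H3 genes, and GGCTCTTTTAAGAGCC by 3 H2B and 2 H3 genes. H2AFX, a variant known to give both a stem-loop mRNA and a longer mRNA with a tail, had a GGCCC stem starting 49 bases after the stop codon, and its annotated transcript ran 1044 bases beyond it.

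Most replication-dependent genes were low in this table. In Scr 24 of the 72 genes were listed at 0, against 31 in the CD24 KO column and 31 in the RCC2 KO column, and 20 were at 0 in all 3 columns. At least 1 FPKM was reached by 36 genes in Scr, 21 in CD24 KO and 19 in RCC2 KO. At least 5 FPKM was reached by 20, 14 and 9 genes. A further 16 genes were above 0 but below 1 FPKM in every column, the highest of them HIST1H2BF at 0.863 FPKM in CD24 KO. In bulk RNA, fewer cells in S phase and less histone RNA per cell cannot be told apart.

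**Figure D1:**
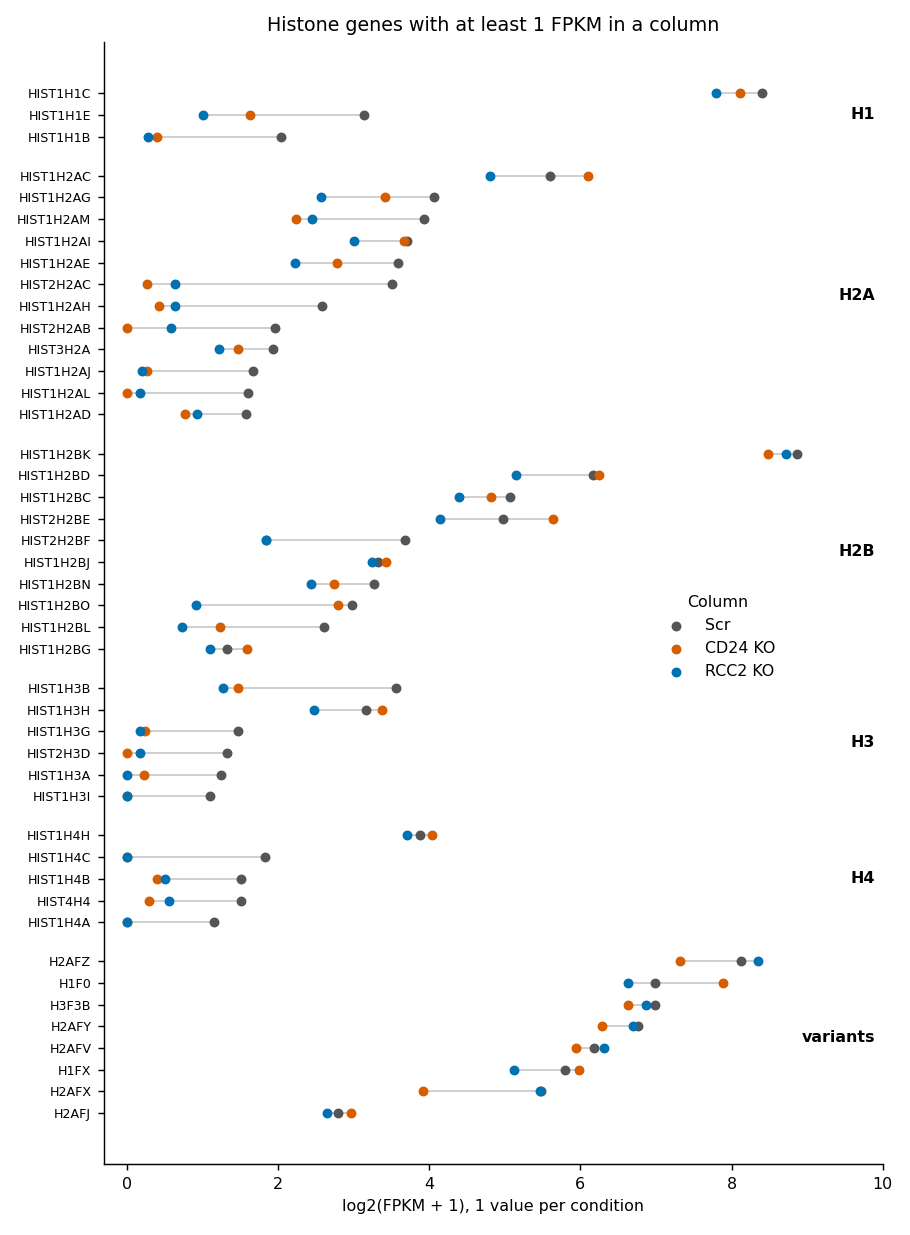
Level of the 44 histone genes with at least 1 FPKM in at least 1 column, as log2(FPKM + 1) on the horizontal axis, with 1 point per condition (Scr grey, CD24 KO orange, RCC2 KO blue) and genes grouped by class on the vertical axis. In every replication-dependent row the RCC2 KO point lies left of the Scr point. Of these 36 rows, 15 reached 1 FPKM in Scr alone, which fixed their direction. Among the variants the H2AFV and H2AFZ points of RCC2 KO lie right of Scr.

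Of the 44 members compared, 36 were replication-dependent and 8 were variants. All 36 replication-dependent genes reached 1 FPKM in Scr, 15 of them in Scr alone and 0 in a knockout column alone, so their selection leans towards lower values in the knockouts. In the libraries labelled CD24 KO, 29 of the 36 were below Scr and 7 above it, and the median log2 difference was -1.06. Of them, 19 were at least 2-fold lower and 0 at least 2-fold higher, where 3.03% and 2.67% of all genes compared were. In the libraries labelled RCC2 KO, all 36 were lower, with a median of -1.15, and 22 were at least 2-fold lower, where 0.796% of all genes were at least 2-fold lower and 0.406% at least 2-fold higher. Of these 19 and 22 genes, 14 and 13 were among the 15 that only Scr had brought in and that had to be lower, so these counts, and those by class given further on, are not read against the shares over all genes. The medians over all 12822 genes were -0.03 and -0.004. Both comparisons use the same Scr values and are not independent of each other.

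Counts that rest less on Scr were taken as well. Over all 52 replication-dependent genes above 0 in any column, 38 were lower, 12 higher and 2 equal in CD24 KO, with a median of -0.48. In RCC2 KO 45 were lower, 5 higher and 2 equal, with a median of -0.75. Of the 18634 genes of the table above 0 in any column, 9008 were lower and 9184 higher in CD24 KO, and 9369 were lower and 8627 higher in RCC2 KO. Another choice, made after the data had been seen, kept the 21 replication-dependent genes with at least 1 FPKM in a knockout column, whatever their Scr value. Of these, 14 were lower and 7 higher in CD24 KO (median -0.29), beside 6657 lower and 6022 higher of the 12692 genes of the table chosen in the same way. At least 2-fold lower were 5 of the 21 and at least 2-fold higher 0, beside 2.84% and 2.69% of those genes. In RCC2 KO 21 of 21 were lower (median -0.83), beside 6360 lower and 6317 higher, and 9 of the 21 were at least 2-fold lower and 0 at least 2-fold higher, beside 0.583% and 0.41%. The median in CD24 KO was nearer to 0 without the genes that only Scr had brought in.

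Other fold minimums gave other counts. At 1.5-fold, 22 replication-dependent genes were lower in CD24 KO and 32 in RCC2 KO, beside 11.6% and 3.82% of all genes. At 3-fold, 9 genes were lower in each, beside 0.523% and 0.257% of all genes. Both again include genes that only Scr had brought in.

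H1 genes encode the linker histones, and here a single gene carried the class. HIST1H1C (chr6:26055968-26056699 in hg19) was at 338 FPKM in Scr, with 276 in CD24 KO and 221 in RCC2 KO. This gene made up 96.7% to 99.5% of the summed H1 level, depending on the column, with log2 differences of -0.29 and -0.61. HIST1H1E was at 7.81, 2.10 and 1.01 FPKM in the same order. HIST1H1B was at 3.13, 0.323 and 0.214 FPKM and so reached 1 FPKM in Scr alone. Both minor H1 genes were thus lower by more than 2-fold in each knockout column, while HIST1H1C was lower by less. The remaining H1 genes, HIST1H1A, HIST1H1D and HIST1H1T, stayed below 1 FPKM.

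H2A genes held the member with the largest drop. HIST2H2AC, at chr1:149858525-149858961 in hg19, was at 10.4 FPKM in Scr, with 0.201 in CD24 KO and 0.563 in RCC2 KO. Its log2 differences of -3.24 and -2.86 were the lowest among the members in both comparisons. HIST1H2AM was at 14.3, 3.71 and 4.49 FPKM in Scr, CD24 KO and RCC2 KO. HIST1H2AH was at 4.98, 0.350 and 0.562 FPKM. These genes stood at similar levels in both knockout columns, well below Scr. Among them HIST2H2AC and HIST1H2AH reached 1 FPKM in Scr alone, as did HIST2H2AB, HIST1H2AJ and HIST1H2AL, named next. The direction of these Scr-only genes was therefore fixed by the filter. HIST2H2AB was at 2.89 FPKM in Scr and 0.503 FPKM in RCC2 KO and was listed at 0 in CD24 KO. HIST1H2AJ was at 2.20, 0.207 and 0.148 FPKM. HIST1H2AL was at 2.04 FPKM in Scr, was listed at 0 in CD24 KO and was at 0.128 FPKM in RCC2 KO.

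In other H2A genes RCC2 KO had the lowest value. HIST1H2AC, at chr6:26124373-26124918 in hg19 and the highest H2A gene of the replication-dependent set, was at 47.4 FPKM in Scr, with 67.6 in CD24 KO and 27.1 in RCC2 KO. Of the 12 replication-dependent H2A genes compared, it was the 1 above Scr in CD24 KO. HIST1H2AG was at 15.8, 9.66 and 4.94 FPKM. HIST1H2AI was at 12.0, 11.7 and 7.07 FPKM. HIST1H2AE was at 11.0, 5.91 and 3.70 FPKM. In these 4 genes the RCC2 KO column thus lay below both others. HIST1H2AD and HIST3H2A, both below 3 FPKM, were also below Scr in each knockout column, by less than 1 on the log2(FPKM + 1) scale. Over the 12 H2A genes compared, 6 were at least 2-fold lower in CD24 KO (median -1.10) and 8 in RCC2 KO (median -1.40). These include the genes that Scr alone had brought in, HIST1H2AD among them. The 6 H2A genes with at least 1 FPKM in every column had medians of -0.56 in CD24 KO (5 lower) and -1.07 in RCC2 KO (6 lower).

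H2B was the class with the highest summed level. HIST1H2BK was at 464 FPKM in Scr, with 358 in CD24 KO and 421 in RCC2 KO, the highest histone gene in every column. Its locus in the table spans 8566 bases, is shared with HIST1H4I and is therefore less certain than that of a single gene. HIST1H2BD was at 71.2, 74.8 and 34.5 FPKM. HIST2H2BE, at chr1:149856010-149858232, was at 30.4, 48.9 and 16.6 FPKM. HIST1H2BC was at 32.6, 27.3 and 20.1 FPKM. Like HIST1H2AC, HIST1H2BD and HIST2H2BE were above Scr in CD24 KO and below it in RCC2 KO.

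H2B genes at middle levels did not move together. HIST2H2BF was at 11.8 FPKM in Scr, with 2.61 in CD24 KO and 2.59 in RCC2 KO, in a merged locus of 29684 bases that it shares with FCGR1A. HIST1H2BL was at 5.09, 1.35 and 0.661 FPKM. HIST1H2BO was at 6.89 and 5.97 FPKM in Scr and CD24 KO but at 0.882 FPKM in RCC2 KO. HIST1H2BO thus separated the knockout columns more than any other replication-dependent member, with a log2 difference of -1.89 between RCC2 KO and CD24 KO. HIST1H2BN was at 8.65, 5.67 and 4.42 FPKM. HIST1H2BJ was at 9.00, 9.79 and 8.50 FPKM, so that its columns differed little. HIST1H2BG, at 1.15 to 2.01 FPKM, was less than 2-fold apart in every comparison. In total 2 of the 10 H2B genes compared were at least 2-fold lower in CD24 KO (median -0.21) and 4 in RCC2 KO (median -0.83).

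H3 and H4 genes were few and low. HIST1H3B (chr6:26031817-26032288 in hg19), which encodes the H3.1 protein, was at 10.8 FPKM in Scr, with 1.77 in CD24 KO and 1.42 in RCC2 KO. Its log2 differences were -2.09 and -2.29. HIST1H3H was at 8.01, 9.36 and 4.56 FPKM. HIST1H3B was therefore the leading H3 gene in Scr, and HIST1H3H in both knockout columns. HIST1H3G was at 1.79, 0.184 and 0.130 FPKM. HIST2H3D was at 1.51 FPKM in Scr, listed at 0 in CD24 KO and at 0.136 FPKM in RCC2 KO. HIST1H3G and HIST2H3D reached 1 FPKM in Scr alone, as did the 2 genes that follow. HIST1H3A was at 1.38 and 0.177 FPKM in Scr and CD24 KO and was listed at 0 in RCC2 KO. HIST1H3I, at 1.15 FPKM in Scr, was listed at 0 in both knockout columns. Of the 6 H3 genes compared, 5 were at least 2-fold lower in CD24 KO (median -1.17) and 5 in RCC2 KO (median -1.20). The genes that Scr alone had brought in fixed the direction of both medians. The 2 H3 genes with at least 1 FPKM in every column had medians of -0.95 in CD24 KO (1 lower) and -1.49 in RCC2 KO (2 lower).

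For H4, HIST1H4H (chr6:26285354-26285727) was at 13.7 FPKM in Scr, with 15.5 in CD24 KO and 12.1 in RCC2 KO. It made up 62.3% to 91.4% of the summed H4 level. The other H4 genes were below 3 FPKM. HIST1H4B was at 1.85, 0.324 and 0.419 FPKM. HIST4H4 was at 1.85, 0.226 and 0.470 FPKM. HIST1H4C was at 2.55 FPKM in Scr and HIST1H4A at 1.24, and neither knockout column lists a value above 0 for them. A listing of 0 in this table does not show that the RNA was absent. Of the 5 H4 genes compared, 4 were at least 2-fold lower in CD24 KO (median -1.16) and 3 in RCC2 KO (median -1.01). HIST1H4A, HIST1H4B, HIST1H4C and HIST4H4 reached 1 FPKM in Scr alone, which fixed their direction and that of both medians. HIST1H4H, with at least 1 FPKM in every column, lay above Scr in CD24 KO and below it in RCC2 KO. Its log2 differences were 0.17 and -0.17.

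Summed over the whole class, and so with no filter on low values, all 5 classes were lower in both knockout columns. H2A summed to 129 FPKM in Scr, with 103 in CD24 KO and 52.4 in RCC2 KO. H3 summed to 25.9, 12.7 and 6.77 FPKM. H4 summed to 22.0, 16.9 and 13.2 FPKM. For these classes the order Scr, CD24 KO, RCC2 KO was the same. H1 summed to 350, 278 and 223 FPKM and H2B to 643, 537 and 512 FPKM, each dominated by its highest gene. Without HIST1H2BK, whose shared locus is less certain, H2B summed to 179.45 FPKM in Scr, with 179.52 in CD24 KO and 91.4 in RCC2 KO. The H2B sum was thus lower in CD24 KO only with HIST1H2BK included. Of the 10 H2B genes compared, 6 were lower in CD24 KO, HIST1H2BK among them, and 4 were higher, so lower and higher genes offset each other in the rest. The replication-dependent total was 1170 FPKM in Scr, with 948 in CD24 KO and 807 in RCC2 KO. Without HIST1H2BK and HIST1H1C, left out after the data had been seen, the total was 368, 315 and 165 FPKM, so the deficit in RCC2 KO was larger in the other 70 genes. The columns themselves differed in their sum over all genes, at 451272 FPKM in Scr, with 388764 in CD24 KO and 447005 in RCC2 KO. As a share of its column the replication-dependent total was 0.259% in Scr, with 0.244% in CD24 KO and 0.181% in RCC2 KO. The sums without the highest genes were not scaled to the column, and the CD24 KO column had the lowest sum.

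**Figure D2:**
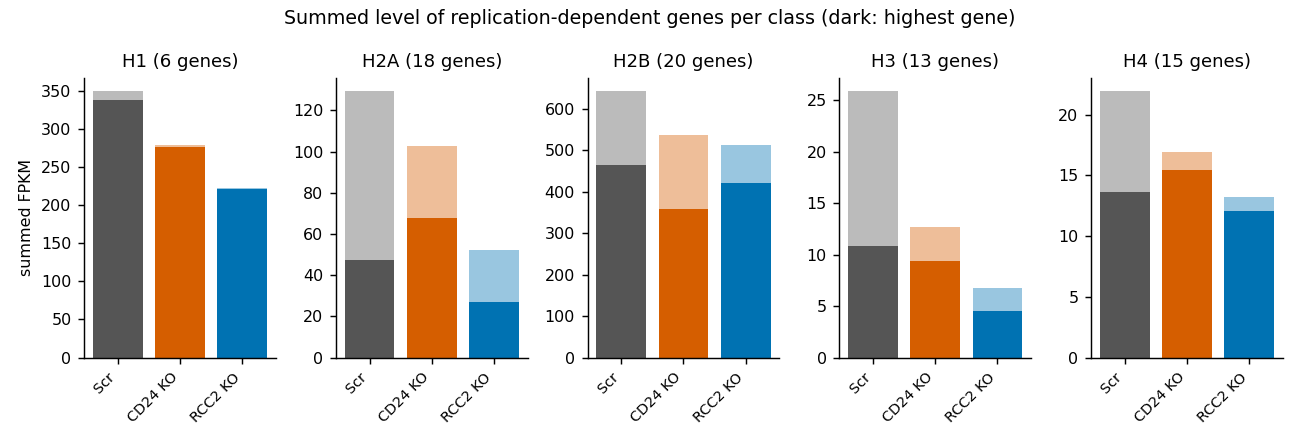
Summed FPKM of the replication-dependent genes of each class (vertical axis, starting at 0, with a scale of its own in each panel) for Scr (grey), CD24 KO (orange) and RCC2 KO (blue), with the part of the highest gene in dark colour. Scr has the tallest bar in each class, and HIST1H1C fills nearly the whole H1 bar.

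Variant genes were higher in level than most replication-dependent genes and had no common direction. H2AFZ, which encodes H2A.Z, a variant found at promoters, was at 277 FPKM in Scr, with 159 in CD24 KO and 324 in RCC2 KO. H2AFX, whose protein is phosphorylated at DNA breaks, was at 43.4, 14.2 and 43.2 FPKM. H2AFY, the macroH2A gene, was at 108, 76.8 and 103 FPKM. These 3 genes were lowest in CD24 KO and close to Scr or above it in RCC2 KO. H2AFV, the gene of another H2A.Z protein, was at 71.6, 60.7 and 78.9 FPKM. H3F3B, which encodes the replacement histone H3.3, was at 126, 97.8 and 116 FPKM.

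The linker variants went the other way. H1F0, a linker histone known to accumulate in cells that have stopped dividing, was at 126 FPKM in Scr, with 237 in CD24 KO and 98.1 in RCC2 KO. H1FX was at 54.6, 62.4 and 34.0 FPKM. Both were highest in CD24 KO and lowest in RCC2 KO, as was H2AFJ at 5.95, 6.85 and 5.27 FPKM. H3F3A was at 0.0018 FPKM in every column and was not compared. H3F3AP4, listed at the same locus, was at 6.76, 10.8 and 7.37 FPKM, and how fragments were divided between the 2 was not tested, so no level of H3F3A is read from the table.

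Set side by side, the replication-dependent genes and the variants differed in the RCC2 KO column. Among genes with at least 1 FPKM in every column, the medians there were -0.79 for 19 replication-dependent genes and -0.09 for 8 variants. In CD24 KO these medians were -0.295 and -0.297. The replication-dependent median of -1.06 in CD24 KO includes the 15 genes that only Scr had brought in. In RCC2 KO the 8 variants had a median log2 difference from Scr of -0.09, with 6 lower, 2 higher and 0 at least 2-fold changed. Their summed level was 802 FPKM against 813 FPKM in Scr. In CD24 KO the variants had a median of -0.30, with 5 lower and 3 higher, and their sum was 714 FPKM. As a share of the column the variant sum was 0.180% in Scr, with 0.184% in CD24 KO and 0.180% in RCC2 KO. The similar shares of Scr and CD24 KO held opposite changes by class. The H2A variants made up 0.112% of the Scr column and 0.0816% of the CD24 KO column, and the H3 variants 0.0279% and 0.0252%. The H1 variants, with H1F0 the highest, made up 0.0401% and 0.0769%. H2AFX was the 1 variant at least 2-fold lower than Scr in CD24 KO, at a log2 difference of -1.55. No test of the difference between the lists was possible, since genes are not replicates.

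The annotation of the 3′ end divided the replication-dependent genes further. In GENCODE 29, 34 genes end at the stop codon, 11 have a short end (at most 100 bases past the stem-loop, or past the stop codon where no stem-loop was found) and 24 have a transcript with a longer end, leaving the 3 pseudogenes. A short record shows only how far the gene has been annotated, not that the mRNA has no stem-loop. The annotation that the authors used is not given in the sources used here. Not every long end lay within the locus of the table. HIST1H2BG spans 444 bases there against 1534 in its GENCODE transcript, whereas HIST2H2BE spans 2223 against 2194. The division therefore describes GENCODE and not the stretch over which each gene was measured.

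In the libraries labelled CD24 KO, all 16 compared genes annotated to the stop codon were lower than in Scr, with a median log2 difference of -1.37 and 12 at least 2-fold lower. Of these 16 genes, 5 reached 1 FPKM in CD24 KO and 4 in RCC2 KO, whereas 12 of the 14 with a long end did in each. Most of the 16 had thus been brought in by Scr alone, which fixed their direction. Part of the contrast between the divisions was therefore set by the filter. The 6 genes with a short end were also all lower, with a median of -1.24. Of the 14 genes with a long end, 7 were lower and 7 higher, with a median of -0.09. These 7, HIST1H2AC, HIST1H2BD, HIST1H2BG, HIST1H2BJ, HIST2H2BE, HIST1H3H and HIST1H4H, are all of the replication-dependent genes compared that were above Scr in CD24 KO. Summed over all members, the genes with a long end were at 259 FPKM in Scr, with 277 in CD24 KO and 140 in RCC2 KO. Those with a short end were at 41.3, 21.5 and 13.5 FPKM, and those annotated to the stop codon at 870, 650 and 653 FPKM, of which HIST1H2BK and HIST1H1C made up the larger share.

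In the libraries labelled RCC2 KO the divisions were closer. All 16, all 6 and all 14 genes were lower than in Scr, with medians of -1.40, -1.59 and -0.81. Genes that only Scr had brought in are again among these, most of them annotated to the stop codon. The division also went with level, since 12 of the 14 genes with a long end but 4 of the 16 annotated to the stop codon had at least 1 FPKM in every column. Among those, the medians in CD24 KO were 0.09 for the 12 and -1.04 for the 4, and in RCC2 KO -0.75 and -1.05. The part of level and of annotation in this division was not tested.

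**Figure D3:**
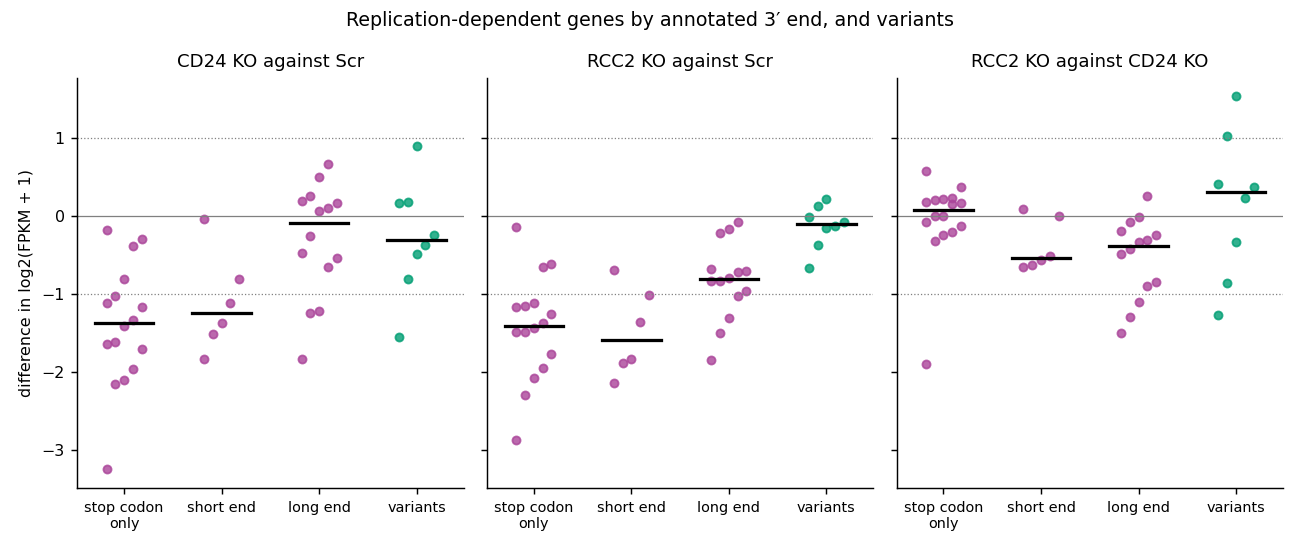
Difference in log2(FPKM + 1) (vertical axis) for each replication-dependent gene compared, by annotated 3′ end, and for the variants, in the 3 comparisons; points are genes, bars are medians, and dotted lines mark 2-fold. Genes with a long end are spread around 0 in CD24 KO against Scr and lie below 0 in RCC2 KO against Scr, while the variants lie nearer to 0 there. Most of the genes annotated to the stop codon reached 1 FPKM in Scr alone, which fixed their direction against Scr.

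Level alone was described in the same way. Genes were split by their highest value in any column, and the 16 genes under 5 FPKM had medians of -1.22 (CD24 KO) and -1.21 (RCC2 KO). For the 14 genes at 5 to 20 FPKM the medians were -0.73 and -1.49. The 6 genes over 20 FPKM (HIST1H2BK, HIST1H1C, HIST1H2BD, HIST1H2AC, HIST1H2BC and HIST2H2BE) had medians of -0.09 and -0.73. Of the 16 low genes, 14 had passed the minimum only through Scr, which fixed their direction. The 2 low genes with at least 1 FPKM in every column had medians of -0.10 (1 of them lower) and -0.47 (both lower). In RCC2 KO all 6 of the highest genes were lower, by log2 differences of -0.14 to -1.03.

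Most H2A and H2B genes lie head to head and share the DNA between their start sites. The table holds 13 such neighbours on opposite strands with 223 to 346 bases between their loci, and in 7 of them both genes were compared. Promoters were matched in RefSeq for 72 of the 81 members. The promoters of HIST2H2AC and of HIST1H2BK are shown because their neighbours HIST2H2BE and HIST1H2AH had other values, and that of H2AFZ because it is the highest variant. Each covers 250 bases before to 50 bases after the start site in GRCh38 (p14 release), 5′ to 3′ on the strand of the gene, and capitals mark the octamer ATTTGCAT, TATAAA and CCAAT on either strand. None of the 3 motifs contains another, but TATAAA can overlap its own complement.
HIST2H2AC: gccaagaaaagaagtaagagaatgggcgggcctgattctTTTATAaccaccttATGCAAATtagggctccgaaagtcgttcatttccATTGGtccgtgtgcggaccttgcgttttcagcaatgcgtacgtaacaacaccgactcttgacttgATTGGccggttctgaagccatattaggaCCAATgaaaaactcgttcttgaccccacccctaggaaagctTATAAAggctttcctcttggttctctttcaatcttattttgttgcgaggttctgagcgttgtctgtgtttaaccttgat
HIST1H2BK: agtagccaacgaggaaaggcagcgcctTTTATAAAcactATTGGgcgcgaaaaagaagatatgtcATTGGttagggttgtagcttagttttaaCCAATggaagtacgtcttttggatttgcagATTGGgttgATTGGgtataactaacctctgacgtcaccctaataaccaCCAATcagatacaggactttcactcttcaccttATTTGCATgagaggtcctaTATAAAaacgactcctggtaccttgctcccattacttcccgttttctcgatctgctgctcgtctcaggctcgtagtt
H2AFZ: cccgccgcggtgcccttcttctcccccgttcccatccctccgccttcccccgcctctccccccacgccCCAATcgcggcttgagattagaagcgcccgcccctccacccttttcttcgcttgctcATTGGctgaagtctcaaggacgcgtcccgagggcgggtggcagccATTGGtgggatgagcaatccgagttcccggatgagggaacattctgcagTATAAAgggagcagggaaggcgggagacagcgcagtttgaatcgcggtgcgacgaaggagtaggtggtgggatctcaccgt

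HIST2H2AC is read from chr1:149886668-149886967 on the plus strand, HIST1H2BK from chr6:27146809-27147108 on the minus strand and H2AFZ from chr4:99950226-99950525 on the minus strand. The window of HIST2H2BE, on the minus strand, shares 265 bases with that of HIST2H2AC. The octamer, which binds the factor OCT1 encoded by POU2F1, was in 11 of 16 H2A and 14 of 18 H2B promoters, in 1 of 11 H3 promoters and in 0 of 6 H1 and 13 H4 promoters. Among all 35116 promoters it was in 1.77%. TATAAA was in 42 of the 64 replication-dependent promoters matched (65.6%) and in 11.5% of all promoters. CCAAT was in 54 of the 64 (84.4%), but in only 3 of 13 H4 promoters, and in 34.6% of all. A match is a description of these letters and says nothing of binding.

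Neighbours that share DNA between their starts could differ widely in value. For HIST2H2AC and HIST2H2BE, 292 bases apart, the log2 differences in CD24 KO were -3.24 and 0.67, and in RCC2 KO -2.86 and -0.83. For HIST1H2AH and HIST1H2BK they were -2.15 and -0.37 in CD24 KO, and -1.94 and -0.14 in RCC2 KO. In both neighbours the H2A gene was the one with the larger deficit, and in both it is annotated to the stop codon, as HIST1H2BK is too. Both H2A genes had reached 1 FPKM in Scr alone, which fixed their direction, whereas HIST2H2BE and HIST1H2BK reached it in every column. HIST1H2AI and HIST1H2BL went the other way, with -0.03 and -1.37 in CD24 KO and -0.69 and -1.87 in RCC2 KO. HIST1H2AM and HIST1H2BO were at -1.70 and -0.18 in CD24 KO but at -1.48 and -2.07 in RCC2 KO. HIST1H2AC and HIST1H2BC were close in RCC2 KO, at -0.79 and -0.67, and less so in CD24 KO, at 0.50 and -0.25. Of the 7 neighbours, the H2A gene had the lower difference in 5 in CD24 KO and in 5 in RCC2 KO. Both counts include HIST2H2AC and HIST1H2AH.

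**Figure D4:**
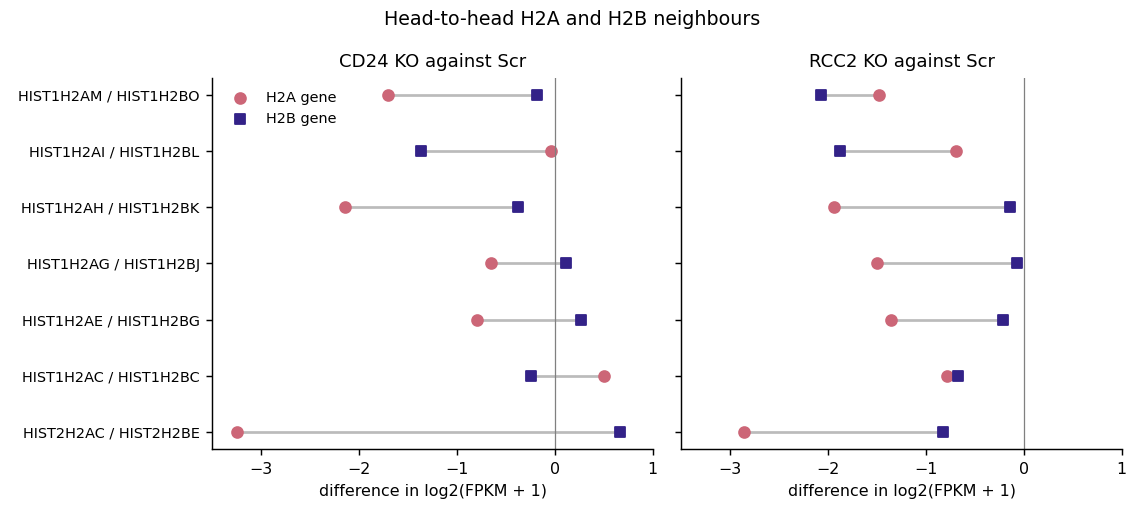
Difference in log2(FPKM + 1) from Scr (horizontal axis) of the H2A gene (circle) and of the H2B gene (square) in the 7 head-to-head neighbours with both genes compared, for CD24 KO and for RCC2 KO. The longest line of both panels is that of HIST2H2AC, which reached 1 FPKM in Scr alone, and HIST2H2BE in CD24 KO.

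The replication-dependent genes lie mostly in the HIST1 cluster on chromosome 6. Between its first and last gene (chr6:25726291-27861669 in hg19) the table holds 56 histone genes and 32 others. Of the 29 histone genes compared there, 23 were lower and 6 higher in CD24 KO (median -0.80). In RCC2 KO 29 of 29 were lower (median -1.16). These counts include genes that only Scr had brought in and that had to be lower. Of the 19 other genes compared, among them the butyrophilin genes, 6 were lower and 13 higher in CD24 KO (median 0.15), 13 were lower and 6 higher in RCC2 KO (median -0.04), and 0 were at least 2-fold changed. Among genes with at least 1 FPKM in every column, the 16 histone genes had medians of -0.27 (10 lower) and -0.74 (16 lower). The 16 others had medians of 0.12 (5 lower) and -0.07 (12 lower). In the HIST2 cluster on chromosome 1, the 5 genes compared had medians of -1.83 (CD24 KO) and -1.37 (RCC2 KO). Of these, HIST2H2AB, HIST2H2AC and HIST2H3D reached 1 FPKM in Scr alone, which fixed their direction. The 2 with at least 1 FPKM in every column, HIST2H2BE and HIST2H2BF, had medians of -0.58 (1 of them lower) and -1.33 (both lower).

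**Figure D5:**
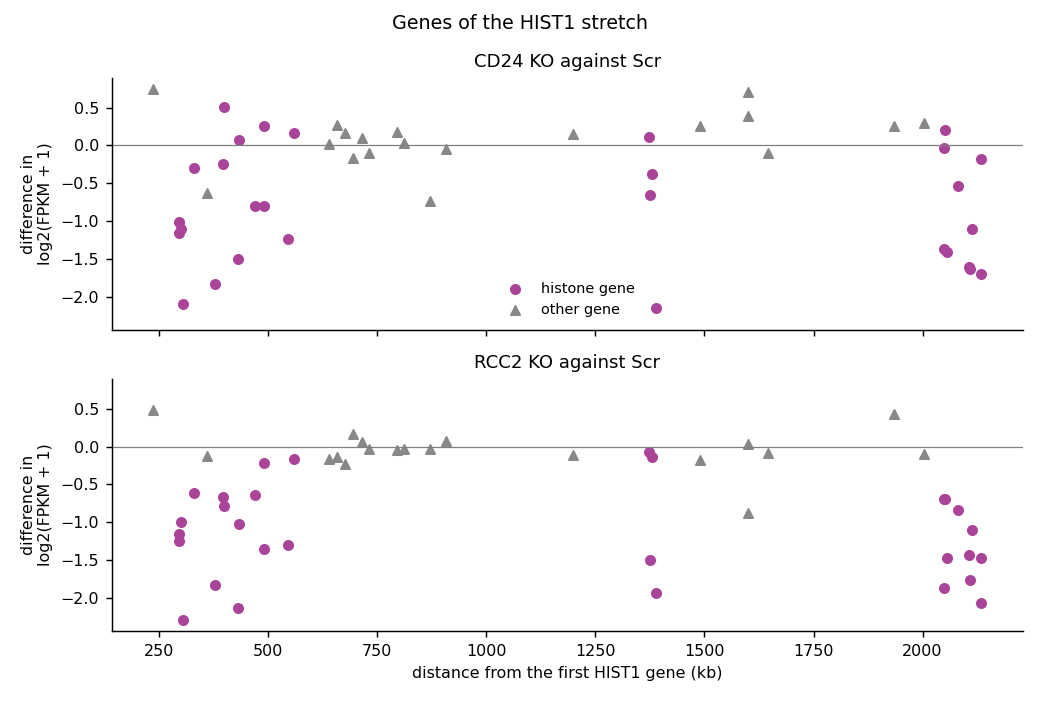
Difference in log2(FPKM + 1) from Scr (vertical axis) of the 29 histone genes (purple circles) and the 19 other genes (grey triangles) compared within the HIST1 stretch, by distance from its first gene in kb. In RCC2 KO all histone genes lie below 0, and the other genes lie around 0. Some of the histone genes reached 1 FPKM in Scr alone, which fixed their direction.

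The knockout columns were also set against each other. In 23 of the 36 replication-dependent genes they were nearer to each other than either was to Scr, but these include the 15 that only Scr had brought in, and with at least 1 FPKM in a knockout column it was 8 of 21. Of the 36 replication-dependent genes, 23 were lower and 10 higher in the libraries labelled RCC2 KO than in those labelled CD24 KO, with a median log2 difference of -0.19 (0.02 over all genes compared). Restricted to the 21 genes with at least 1 FPKM in a knockout column, 19 had the lower value in RCC2 KO and 2 in CD24 KO (median -0.48). HIST1H2BO, HIST2H2BE, HIST1H2AC and HIST1H2BD were at least 2-fold lower in RCC2 KO, at -1.89, -1.50, -1.29 and -1.10, where 4.3% of all genes were. None was at least 2-fold higher, where 4.02% of all genes were. Of the genes with a long end, 13 were lower and 1 higher (median -0.38), and of those annotated to the stop codon 6 were lower and 8 higher (median 0.08). Among the variants H2AFX and H2AFZ were at least 2-fold above CD24 KO in RCC2 KO, at 1.54 and 1.03, and H1F0 was at least 2-fold lower, at -1.26.

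Genes that make, process and carry histones were given beside the members, from lists chosen with earlier results of these data known. Of 23 genes of histone transcription and mRNA end processing, 20 were lower and 3 higher in CD24 KO (median -0.32) and 6 were lower and 17 higher in RCC2 KO (median 0.06). SLBP, the stem-loop binding protein, was at 78.2 FPKM in Scr, with 66.5 in CD24 KO and 78.7 in RCC2 KO. NCBP2, a subunit of the cap-binding complex, was at 72.9, 69.5 and 76.7 FPKM. SRRT, which links that complex to RNA processing, was at 70.8, 18.9 and 76.3 FPKM. SRRT and CCNA2, the cyclin A2 gene, were the 2 genes of this list that were at least 2-fold lower in CD24 KO, and 0 were in RCC2 KO. NPAT, the coactivator of histone gene transcription, was at 7.29, 7.72 and 8.05 FPKM. CPSF2, a subunit of the complex that cleaves histone mRNA ends, was at 70.3, 56.0 and 73.1 FPKM. Of 19 histone chaperones compared, 16 were lower in CD24 KO (median -0.31) and 10 in RCC2 KO (median -0.04), with CHAF1A, CHAF1B and IPO4 at least 2-fold lower in CD24 KO. NPAT, CCNA2 and these 3 chaperones were named after their values had been seen.

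S phase genes whose mRNAs carry a tail separated the knockout columns. Of 23 genes, 23 were lower in CD24 KO with a median of -1.05, and 12 of them were at least 2-fold lower. In RCC2 KO, 9 were lower and 14 higher, with a median of 0.03 and 0 at least 2-fold changed. RRM2, a subunit of ribonucleotide reductase, was at 138 FPKM in Scr, with 40.1 in CD24 KO and 141 in RCC2 KO. In CD24 KO the S phase genes of the list were therefore all lower. Of the 21 replication-dependent histone genes with at least 1 FPKM in a knockout column, 14 were lower there and 7 higher (median -0.29). In RCC2 KO all 21 were lower (median -0.83), beside S phase genes near the level of Scr. The part of the cell cycle in the histone values was not tested.

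RNAs that have no tail also moved. Of a list of 14 such RNAs, 5 are in the table and 2 were compared. RMRP, the RNA of RNase MRP, was at 1256 FPKM in Scr, with 79.6 in CD24 KO and 89.0 in RCC2 KO. RPPH1, the RNA of RNase P, was at 165, 40.3 and 15.1 FPKM. Both were lower than in Scr in both knockout columns, as most replication-dependent histone genes were. TERC was at 0.727, 0.190 and 0.419 FPKM, and RNU11 and RNU12 were listed at 0. The part of RNA selection in the histone values was not tested.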

How the data were processed

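RNA sequencing of DU145 cells was analysed from the processed table alone, with 6 libraries in 3 conditions grouped by their titles. The authors deposited FPKM values, 1 per gene and condition, scaled to transcript length and library size. The submitters' processing notes name HISAT, StringTie, Cufflinks and GATK without versions. The build, the annotation and the strand setting are not given in the sources used here. The loci were read as hg19, since only 37 of 81 members overlapped their GRCh38 position, and starts were written from 1. Genes that share a locus, and near-identical copies such as HIST2H2AA3 and HIST2H2AA4 or HIST2H4A and HIST2H4B, can divide fragments.

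Members were found by symbol. Genes with at least 1 FPKM in at least 1 column (12822 genes) were compared as differences of log2(FPKM + 1), and called at 2-fold or more. The tests planned for separate libraries were not possible with pooled values, so no p-value or SD is given. Values in all columns are given for each member with at least 5 FPKM in a column or at least 2-fold changed in a comparison, the others by count and range, and for other lists at most 5 genes, the highest in Scr first. The members and lists were chosen with earlier results of these data known.

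Stem-loops were searched in GENCODE 29 transcripts as 16 bases that start with GG and end with CC, with a stem of 6 bases, at most 1 of them unpaired, and a loop of 4 bases. The division by 3′ end differs from the one first written in that genes without a stem-loop were split by their annotated length. Promoters came from RefSeq (GRCh38, p14 release). No precision can be derived, because the depth of the libraries is unknown. The calculations were tested on simulated data. Python 3.11.15, NumPy 2.4.6, pandas 2.3.3 and matplotlib 3.10.9 were used. Alternatives were other filters and pseudocounts, quantile normalization, median centring and other fold minimums. Others left out members listed at 0, members sharing a locus with another member, or the 2 highest replication-dependent members.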

Additional observations from a re-analysis of the deposited data

How the results depend on the processing

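Each of 8 medians and counts was recomputed under the alternatives, 89 values in all. Of these, 55 stayed within 0.1 on the log2 scale (medians) or within 1.5 times the main value (counts), 34 moved further, and 0 changed sign. For the replication-dependent genes in CD24 KO against Scr, the median of -1.06 was -0.48 for all members above 0, -0.29 for members with at least 1 FPKM in every column, -0.50 with a mean of at least 1 FPKM, -0.29 with at least 1 FPKM in a knockout column (added after seeing the data), -1.84 and -0.37 with pseudocounts of 0.1 and 5, and -0.65 without members listed at 0. In RCC2 KO against Scr the median of -1.15 was -0.75 for all members above 0, -0.79 with at least 1 FPKM in every column, -0.93 with the filter on the mean, -0.83 with the filter on a knockout column, -1.005 without members listed at 0, and -1.84 and -0.53 with pseudocounts of 0.1 and 5. Between RCC2 KO and CD24 KO the median of -0.19 was -0.42 with at least 1 FPKM in every column, -0.32 with the filter on the mean, -0.48 with the filter on a knockout column, -0.31 and -0.064 with pseudocounts of 0.1 and 5, -0.30 without members listed at 0 and -0.013 after quantile normalization. The variants moved only after quantile normalization, to -0.083 in CD24 KO against Scr and 0.12 between the knockouts.

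The count of replication-dependent genes at least 2-fold lower in CD24 KO (19) was 4 with at least 1 FPKM in every column, 9 with the filter on the mean, 5 with the filter on a knockout column, 4 with a pseudocount of 5, 12 without members listed at 0 and 9 at 3-fold. In RCC2 KO the count (22) was 7, 13, 9 and 7 under the first 4 of these, and 9 at 3-fold. The filters and the omission of zeros leave fewer genes. For the other changes the cause was not tested. No paired analysis was possible because the table holds 1 pooled value per condition, and no replicate could be left out for the same reason. The clone, the culture and the RNA selection of a condition cannot be told apart from its label, and the depth behind low values is unknown.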

Other observations

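Of 11 genes of histone variants outside the rule, 3 had at least 1 FPKM in a column. CENPA, the H3 variant of centromeres, was at 24.3 FPKM in Scr, with 18.0 in CD24 KO and 24.5 in RCC2 KO. H2AFY2, a gene of macroH2A2, was at 30.2, 32.3 and 28.3 FPKM, and H3F3C at 1.24, 0.553 and 0.808 FPKM. None was at least 2-fold changed in a comparison, while H2AFB1, H2AFB2, H2AFB3, H2BFM, H2BFWT and HILS1, most of them known from testis, were listed at 0 in every column.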
